A study of Mus musculus with 6 samples.

Results

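Histone lysine methyltransferases and demethylases are the enzymes that add methyl groups to lysines of the histone tails and take them off again. They were chosen here by gene symbol alone (Kmt, Setd, Nsd, Ehmt, Ezh, Suv39h, Prdm, Smyd, Dot1l, and Ash1l for methyltransferases and their relatives, and Kdm for demethylases, without Kdm1a), and 59 of the 14477 genes listed in the deposited matrix are described as members. Of these, 58 are genes of proteins and 1, Prdm16os, is an antisense RNA whose symbol met the rule. The methyltransferase, SMYD, and PRDM symbols account for 42 members and Kdm symbols for 16. The values are from RNA-Seq of the mouse hippocampus at baseline, without treatment, in 1 library per mouse, with replicates 2, 3, and 6 of Phf21bΔ4/Δ4 (n = 3) and replicates 5, 7, and 8 of Phf21b+/+ (n = 3). Both genotypes were kept on the C57BL/6J background, and the study's methods describe littermates of both sexes aged between 2 and 6 months. The labels give no sex for these 6 mice, and their Xist and Y-linked transcripts are described below. Phf21bΔ4/Δ4 is a whole-body CRISPR/Cas9 line with a deletion in exon 4 of Phf21b, which codes for a plant homeodomain reader of histones, so every cell type carries the allele from conception. The series asks which hippocampal transcripts change when PHF21B is depleted.

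Methylation of histone H3 at lysine 4 (H3K4) and lysine 36 (H3K36) is a mark of active promoters and of transcribed gene bodies, respectively, whereas methylation at lysine 9 (H3K9) and lysine 27 (H3K27) accompanies silent chromatin, and methylation of histone H4 at lysine 20 (H4K20) is linked to chromosome compaction and the cell cycle. Writers of these marks share a catalytic SET domain, with Dot1l as the exception, and the erasers are either amine oxidases of the LSD family (Kdm1) or dioxygenases with a Jumonji domain (all other Kdm proteins). In neurons, loss of function in several of these enzymes (KMT2A, KMT2D, EHMT1, NSD1, SETD5, KDM5C, and KDM6A among them) causes human neurodevelopmental syndromes.

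The promoters of 5 members are shown to place a CREB motif in the members of lowest p. The motif searched was the cAMP response element (CRE) bound by CREB, an activity-regulated transcription factor that is a subject of the study. Searched on both strands were the full CRE, TGACGTCA, and its half-site, TGACG, which reads CGTCA on the other strand, so that each full CRE also counts as a half-site. Each window is RefSeq sequence of build GRCm38.p6, given 5′ to 3′ on the strand of the gene, and runs from 250 bases before the transcript start to 50 bases after it. Capitals mark the half-site or the full CRE. Shown are the 4 members of lowest p between the genotypes and the single member with a full CRE, and for Kmt5a the first of 3 windows is given.
Kdm5b, chr1:134559928-134560227, plus strand: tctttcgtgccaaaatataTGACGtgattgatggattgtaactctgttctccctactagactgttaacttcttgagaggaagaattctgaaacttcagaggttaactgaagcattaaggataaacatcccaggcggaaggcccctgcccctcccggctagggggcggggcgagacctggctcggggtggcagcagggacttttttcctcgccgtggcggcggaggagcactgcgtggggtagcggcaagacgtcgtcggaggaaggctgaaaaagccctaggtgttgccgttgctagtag
Smyd5, chr6:85431726-85432025, plus strand: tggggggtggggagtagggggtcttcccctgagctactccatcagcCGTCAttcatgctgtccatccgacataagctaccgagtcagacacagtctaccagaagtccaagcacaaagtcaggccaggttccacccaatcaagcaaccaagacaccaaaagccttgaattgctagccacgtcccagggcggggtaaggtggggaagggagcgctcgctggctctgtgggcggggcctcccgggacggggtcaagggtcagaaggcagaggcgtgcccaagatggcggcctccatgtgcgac
Kmt5a, chr5:124439680-124439979, plus strand: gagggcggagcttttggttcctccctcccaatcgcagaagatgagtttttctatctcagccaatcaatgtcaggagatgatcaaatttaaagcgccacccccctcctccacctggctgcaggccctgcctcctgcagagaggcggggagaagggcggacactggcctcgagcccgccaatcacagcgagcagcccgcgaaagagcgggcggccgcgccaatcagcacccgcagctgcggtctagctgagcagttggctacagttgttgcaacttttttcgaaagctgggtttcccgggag
Ezh2, chr6:47594981-47595280, minus strand: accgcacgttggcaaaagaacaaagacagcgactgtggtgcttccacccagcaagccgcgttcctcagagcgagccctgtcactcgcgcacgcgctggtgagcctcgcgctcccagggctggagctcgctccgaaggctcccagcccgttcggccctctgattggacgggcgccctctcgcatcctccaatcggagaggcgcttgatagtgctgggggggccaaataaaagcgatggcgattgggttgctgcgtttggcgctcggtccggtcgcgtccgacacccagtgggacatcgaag
Suv39h2, chr2:3474937-3475236, minus strand: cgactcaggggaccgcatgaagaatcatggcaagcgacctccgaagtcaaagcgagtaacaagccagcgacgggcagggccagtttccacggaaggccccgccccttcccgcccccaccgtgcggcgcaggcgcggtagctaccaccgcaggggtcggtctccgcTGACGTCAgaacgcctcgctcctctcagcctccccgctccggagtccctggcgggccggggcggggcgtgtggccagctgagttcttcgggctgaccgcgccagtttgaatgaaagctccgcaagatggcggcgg

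Kdm5b held 1 half-site, 231 bases before the start, and Smyd5 held 1 at 204 bases before it. Neither Kmt5a nor Ezh2 held these letters in the windows shown. Suv39h2 held a full CRE 85 bases before the start. RefSeq windows were found for 45 of the 59 members, with 61 windows in all. A half-site occurred in 15 of the 61 windows (24.6%), against 29.5% of the windows of all listed genes and 20.8% of all windows in the RefSeq table, and a full CRE in 1 window (1.64%), against 2.90% and 1.79%. The member promoters were rich in CpG dinucleotides, with a median of 28 per window against 20 over the listed genes and 7 over the RefSeq table. A match to these letters is a description of the sequence and does not show binding.

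Reads on listed genes came to between 20495605 and 24881257 per mouse. A count of 3 reads, taken as the floor, corresponded to 0.127 to 0.143 CPM (reads of a gene scaled to the effective library size of its mouse), and covers counting error only. Phf21b itself was at 2.15, 3.57, and 3.87 CPM in Phf21bΔ4/Δ4 replicates 2, 3, and 6, below the 6.5, 5.23, and 6.47 CPM of Phf21b+/+ replicates 5, 7, and 8 (log2 difference −0.96 ± 0.26 SE, limma FDR 0.14). Markers of hippocampal excitatory neurons were present in every mouse, at summed levels of 1540 to 1756 CPM in Phf21bΔ4/Δ4 mice and 1117 to 1467 CPM in Phf21b+/+ mice. Markers of neighbouring regions differed. All 14 medial habenula markers were lower in every Phf21bΔ4/Δ4 mouse, and 12 of them were called (0.663% of all genes were called lower). Their summed levels were 79.5 to 122 CPM against 384 to 573, and Pou4f1, Irx2, and Chat had 0 to 2 reads in each Phf21bΔ4/Δ4 mouse. Thalamus markers summed to 177 to 226 CPM against 425 to 646, and 4 of the 8 were lower without overlap (16.0% of all genes), with Tcf7l2 and Zic1 called. CA1 pyramidal neuron markers summed to 994 to 1069 CPM against 413 to 453. All 7 had higher means, and 3 (Fibcd1, Mpped1, and Gpr161) were called (0.553% of all genes were called higher). These 3 were higher without overlap (15.0% of all genes), and the others overlapped. Dentate granule cell markers summed to 123.1 and 115 CPM in Phf21bΔ4/Δ4 replicates 2 and 3 but to 489 CPM in replicate 6, near the 516 to 612 CPM of Phf21b+/+ mice. Interneuron markers summed to 688 to 830 CPM against 468 to 531, with 6 of 7 higher without overlap and Gad2 called higher. Called lower were Glis3 of the dentate list and Otx2 of the choroid plexus list. The sums of CA3 pyramidal neuron, astrocyte, oligodendrocyte, microglia, and endothelial markers overlapped between the genotypes, but single genes in these lists did not. Aqp4 was called lower (limma FDR 0.067), and 2 of 7 astrocyte markers were lower without overlap. Higher without overlap were 2 of 6 microglia and 2 of 5 endothelial markers, and 1 CA3 marker parted in each direction. Choroid plexus markers summed to 15617 CPM in Phf21b+/+ replicate 7, against 22.6 to 971 CPM elsewhere. These sums moved with the genotype or with single mice, and their part in the members' differences was not tested. In bulk tissue, fewer cells of a type and less RNA per cell cannot be told apart.

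All 59 members lay above the floor, with at least 22 reads in every mouse and a mean above 10 CPM in 47 of them. Counting error is large at the lowest counts, such as the 28 to 44 reads of Prdm9 and 27 to 44 reads of Kdm4d. Levels of different genes can be set side by side only per length of transcript, so CPM was divided by the merged exon length in kb (RPKM) for the 58 members with a gene model. The median member had 5.30 RPKM. Highest was Ehmt2 with a mean of 29.99 RPKM over the 6 mice, which codes for the H3K9 dimethyltransferase G9a. Setd3, an actin histidine methyltransferase, followed with 26.6 RPKM and Setd7, an H3K4 monomethyltransferase, with 20.1 RPKM. The lowest were Prdm9, the meiotic recombination factor, with 0.368 RPKM, Smyd1, a muscle enzyme, with 0.472 RPKM, and Kdm4d with 0.532 RPKM.

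**Figure D1:**
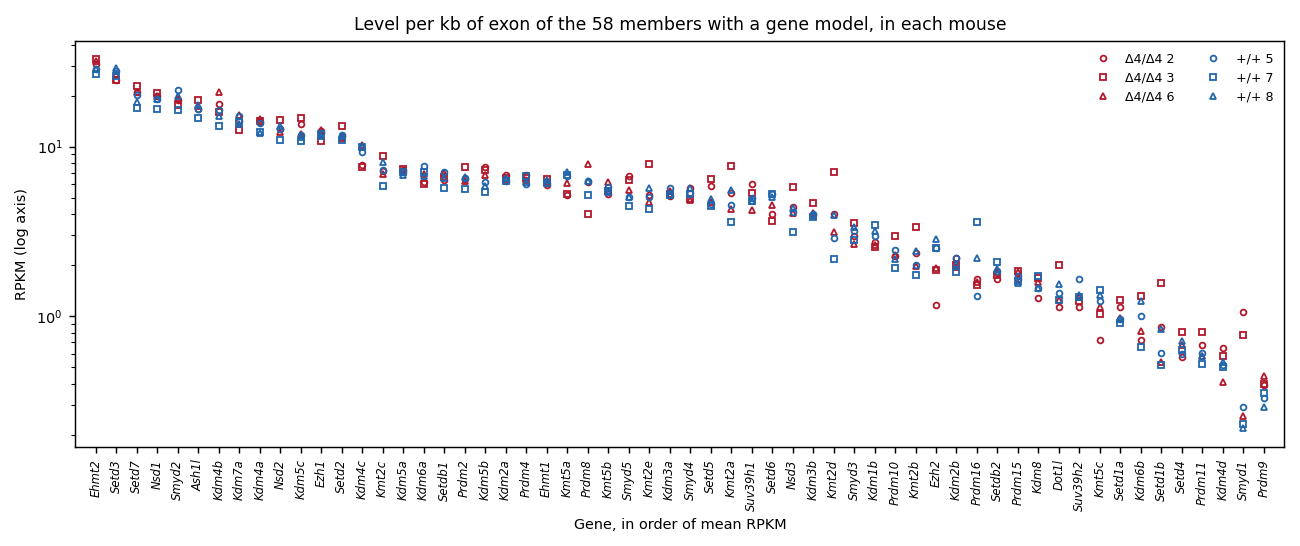
Level per kb of merged exon (RPKM, log axis) of the 58 members with a gene model, in order of their mean, with 1 symbol per mouse (red, Phf21bΔ4/Δ4; blue, Phf21b+/+). Levels run from 0.368 RPKM for Prdm9 to 29.99 RPKM for Ehmt2, and for most genes the 6 symbols lie close together, with Ezh2, Kmt2d, and Smyd1 among those where they spread.

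Among related enzymes the order was clear where levels lay several-fold apart. Of the H3K27 writers, Ezh1 (11.9 RPKM) stood above Ezh2 (2.14 RPKM), with no overlap between mice. Of the H3K9 writers, Ehmt2 stood above Setdb1 (6.58 RPKM), Ehmt1 (6.20 RPKM), and Suv39h1 (5.02 RPKM), and Setdb2 (1.84 RPKM) and Suv39h2 (1.32 RPKM) were lowest. Setdb1 and Ehmt1 were close together in this order and their mice overlapped. Among the COMPASS-type H3K4 writers, Kmt2c had 7.36 RPKM and Kmt2a 5.15 RPKM, whereas Setd1a (1.03 RPKM) and Setd1b (0.821 RPKM) were lowest.

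By limma, with a fold change above 1.3 and an FDR under 0.1 both required, 0 of the 59 members were called, against 1.22% of all 14477 genes (0.553% higher and 0.663% lower). Voom on the recovered reads called 0 as well, with 10 at an unadjusted p under 0.05. Without Phf21bΔ4/Δ4 replicate 6 limma called 6 members (Setd5, Smyd5, Kmt5a, Ezh2, Setd6, and Smyd1), and 2830 of all 14477 genes. By limma with all mice 11 members (18.6%) had an unadjusted p under 0.05, 6 higher and 5 lower in Phf21bΔ4/Δ4 mice, against 23.6% of all genes (11.6% higher and 12% lower). The mice of the genotypes did not overlap for 16 members (27.1%), 10 higher and 6 lower, against 31.0% of all genes (15.0% higher, 16.0% lower). These shares lay somewhat below the background. By size, 6 members (10.2%) differed by more than 1.3-fold, against 27.3% of all genes, and 28 members differed by less than 1.1-fold. For 23 members a gene on the other strand overlaps their exons (Gm26625 for Ezh2, Dek for Kdm1b), and the sources used here do not state whether counting used strand. The p-values measure the spread between these 6 mice, and an exact permutation test over 3 against 3 mice cannot go below p = 0.1.

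**Figure D2:**
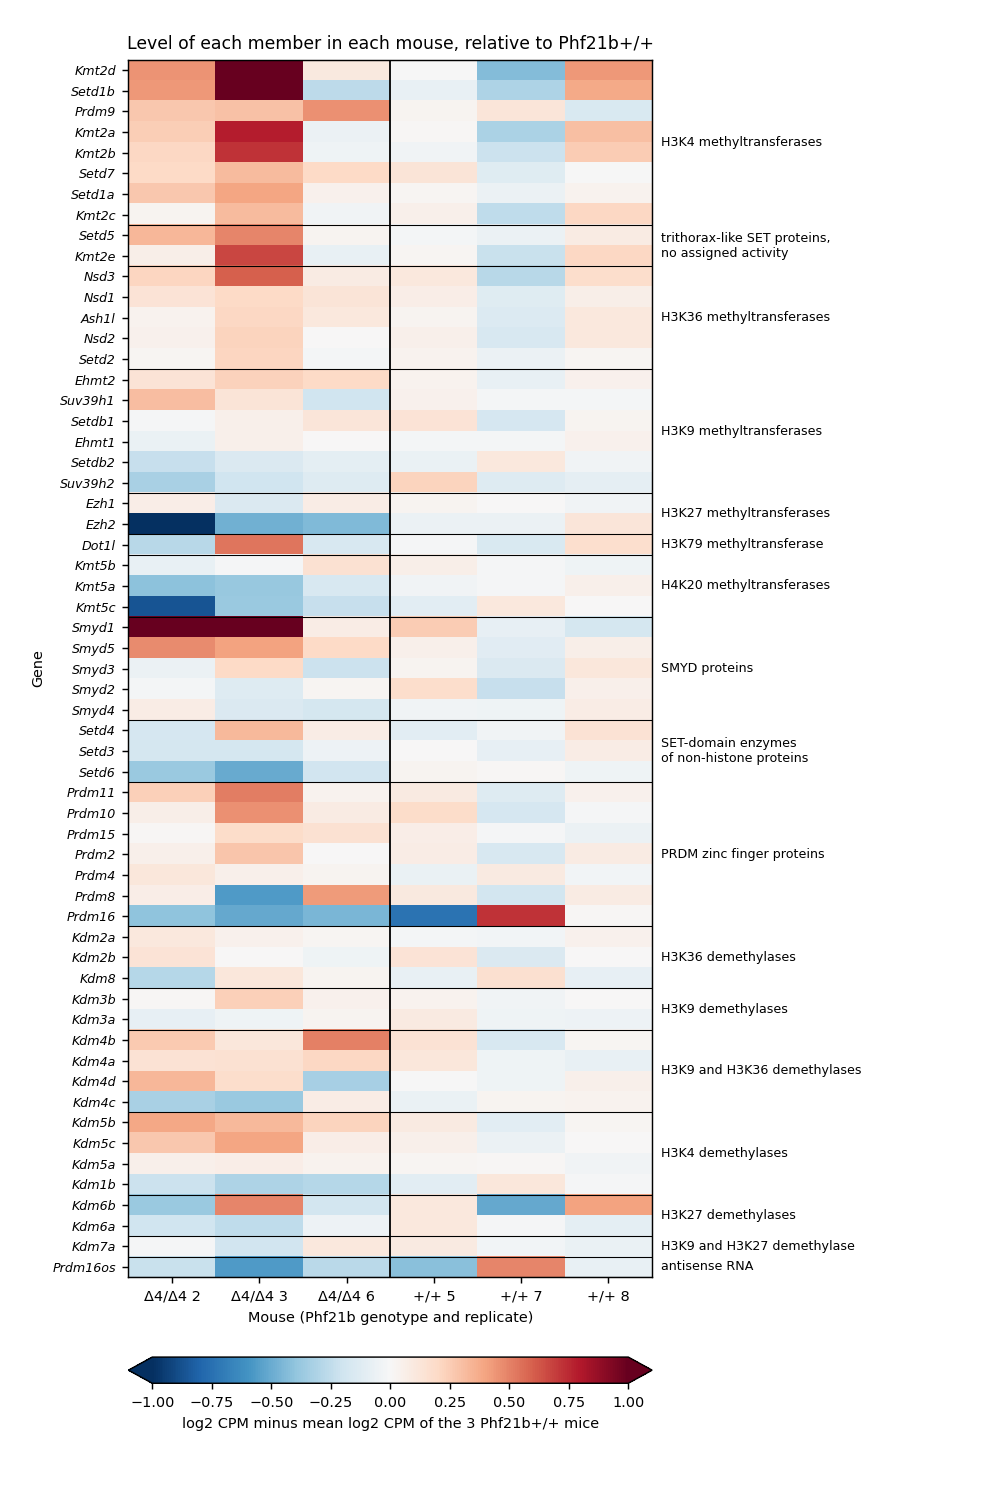
Level of each of the 59 members in each mouse, as log2 CPM minus the mean log2 CPM of the 3 Phf21b+/+ mice (colour scale from −1 to 1, with arrows for values beyond it), with genes grouped by role. Phf21bΔ4/Δ4 replicate 3 and Phf21b+/+ replicate 7 are opposite in colour over the long H3K4 writers, and Ezh2 and Smyd1 show strong colours elsewhere.

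The H3K4 methyltransferases had a higher mean in Phf21bΔ4/Δ4 mice in 8 of 8 members (7 of 8 after quantile normalization or with weighted samples), but 0 of them were called. The log2 differences ran from 0.10 to 0.61 with a median of 0.31, beside −0.02 over all genes. Higher without overlap were 3 of the 8 (Setd7, Setd1a, and Prdm9), against 15.0% of all genes. Setd7 had 228, 247, and 229 CPM in Phf21bΔ4/Δ4 mice and 217, 183, and 198 CPM in Phf21b+/+ mice (235 ± 10.9 against 199 ± 17.1, SD, n = 3; log2 difference 0.24 ± 0.09 SE, limma FDR 0.18). Every Phf21bΔ4/Δ4 mouse lay above every Phf21b+/+ mouse, by a narrow margin over replicate 5. After quantile normalization the Setd7 log2 difference was 0.08 (limma FDR 0.53). Prdm9, at the low end of the levels, had 1.69, 1.71, and 1.91 CPM against 1.42, 1.52, and 1.26 CPM (log2 difference 0.34 ± 0.23, limma FDR 0.37). Phf21bΔ4/Δ4 replicate 3 and Phf21b+/+ replicate 7 had 36 reads of it each, so only the scaling to library size parted them.

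The largest log2 differences of these 8 genes were those of Kmt2d and Setd1b, and in both the genotypes overlapped. Kmt2d, which codes for the enhancer H3K4 monomethyltransferase MLL4, had 79.4, 140, and 62.3 CPM in Phf21bΔ4/Δ4 replicates 2, 3, and 6 and 58.0, 43.2, and 78.7 CPM in Phf21b+/+ replicates 5, 7, and 8 (log2 difference 0.61 ± 0.34, limma FDR 0.30). Replicate 3 was the high mouse of its genotype, replicate 7 the low mouse of the other, and the genotypes overlapped. Without Phf21bΔ4/Δ4 replicate 3 the Kmt2d difference was 0.27, and the median of the H3K4 writers went from 0.31 to 0.12. Without Phf21b+/+ replicate 7 they were 0.39 and 0.20, and in each of these cases 7 of 8 stayed higher. The log2 differences of Kmt2a (0.32 ± 0.24), Kmt2b (0.30 ± 0.22), Setd1b (0.49 ± 0.39), and Kmt2c (0.10 ± 0.15) all had limma FDRs of 0.41 or more.

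These 2 mice stood apart across the members. Phf21bΔ4/Δ4 replicate 3 was the highest of the 6 mice for 27 of 59 members (45.8%, against 23.8% of all genes), and Phf21b+/+ replicate 7 was the lowest for 28 (47.5%, against 26.2%). The members' transcripts are long, with a median merged exon length of 7.78 kb against 4.54 kb over all listed genes. In the 21 members with at least 10 kb of exon, replicate 3 stood above the mean of replicates 2 and 6 by a median of 0.20 log2 units, against 0.03 in the 37 shorter members. Replicate 7 stood below the mean of replicates 5 and 8 by a median log2 difference of −0.19 in the long members and −0.07 in the shorter ones. Across the 58 members with a gene model the replicate 3 deviation had a Pearson's r of 0.37 with log2 exon length and 0.32 with GC content, against 0.14 and 0.05 across 14277 listed genes, all from the same libraries. Correction for exon length, an alternative chosen after seeing the data, gave a median of 0.21 for the H3K4 writers with 7 of 8 higher. Correction for GC content, chosen likewise, gave a median of 0.28 with 8 of 8 higher.

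**Figure D3:**
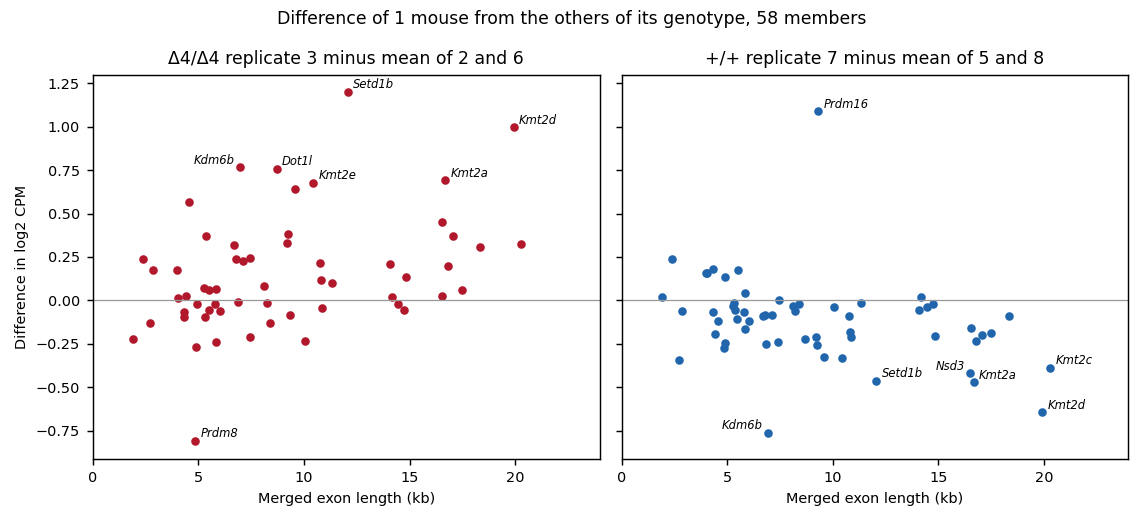
Difference in log2 CPM of 1 mouse from the mean of the other mice of its genotype, against merged exon length (kb), for the 58 members with a gene model (1 point each). In Phf21bΔ4/Δ4 replicate 3 (left) the long Kmt2d, Kmt2a, and Setd1b lie far above 0, and in Phf21b+/+ replicate 7 (right) the same genes lie below 0 while Prdm16 lies above it.

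The relatives Kmt2e and Setd5, SET-domain proteins with no assigned H3K4 activity, had log2 differences of 0.22 ± 0.21 and 0.28 ± 0.12 (limma FDR 0.53 and 0.23). Dot1l, the H3K79 writer, differed by 0.03 ± 0.23, with a 95% interval from −0.51 to 0.58 on the log2 scale.

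The H3K36 methyltransferases also had higher means in Phf21bΔ4/Δ4 mice in 5 of 5 members, but in 1 of 5 after quantile normalization or correction for exon length, with a median log2 difference of 0.11 (range 0.07 to 0.30) and 0 called. Nsd1, which dimethylates H3K36, was the only one of the 5 that did not overlap, with 350, 365, and 349 CPM in Phf21bΔ4/Δ4 mice and 333, 292, and 332 CPM in Phf21b+/+ mice (log2 difference 0.15 ± 0.08, limma FDR 0.29). Setd2, the enzyme that trimethylates H3K36, had 125, 143, and 122 CPM against 127, 118, and 125 CPM (log2 difference 0.07 ± 0.09, 95% interval −0.13 to 0.28). Apart from replicate 3, the 5 mice spanned 118 to 127 CPM of Setd2. Nsd2 had 213, 240, and 206 CPM against 213, 185, and 222 CPM, Nsd3 73.0, 95.3, and 66.6 CPM against 67.7, 52.0, and 71.3 CPM, and Ash1l 246, 278, and 259 CPM against 246, 219, and 260 CPM. In all 5 genes replicate 3 was the highest mouse and replicate 7 the lowest. The median of the group was −0.02 after correction for exon length and −0.07 after quantile normalization. After correction for GC content it was 0.13 with 5 of 5 higher, so the direction of the group did not hold in every fit.

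The H3K9 methyltransferases were divided, with 3 of 6 higher, 3 of 6 lower, and a median log2 difference of 0.03. Ehmt2, the most abundant member per kb, had 169, 180, and 177 CPM in Phf21bΔ4/Δ4 mice and 157, 146, and 158 CPM in Phf21b+/+ mice (175 ± 5.92 against 154 ± 6.56, SD, n = 3; log2 difference 0.19 ± 0.07, limma FDR 0.18). The genotypes did not overlap, and the fold change was 1.14. After quantile normalization the Ehmt2 log2 difference was 0.06 (limma FDR 0.63). Its partner in the G9a-GLP heterodimer, Ehmt1, had 48.2, 52.2, and 50.5 CPM against 49.6, 49.7, and 51.8 CPM. The Ehmt1 difference was −0.00 ± 0.07 on the log2 scale with a 95% interval from −0.17 to 0.16, and a fold change above 1.3 lies outside this interval.

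The other H3K9 writers overlapped between the genotypes, with Setdb2 as the exception. Setdb1, which works with the KAP1 corepressor, had 43.9, 45.7, and 48.1 CPM in Phf21bΔ4/Δ4 mice and 48.6, 39.3, and 45.0 CPM in Phf21b+/+ mice. Suv39h1 had 31.7, 28.0, and 22.3 CPM against 26.3, 25.2, and 25.2 CPM, so that the Phf21bΔ4/Δ4 mice lay on both sides of the Phf21b+/+ mice. Suv39h2, whose promoter holds the full CRE, had 4.98, 5.43, and 5.70 CPM against 7.26, 5.70, and 5.84 CPM (log2 difference −0.22 ± 0.15, limma FDR 0.40). Setdb2 had 6.71, 7.10, and 7.35 CPM against 7.50, 8.44, and 7.64 CPM, without overlap (log2 difference −0.16 ± 0.12, limma FDR 0.43).

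Of the 2 H3K27 and 3 H4K20 methyltransferases, 1 and 2 had lower levels without overlap (Ezh2, Kmt5a, and Kmt5c), beside 16.0% of all genes, and 0 were called. Ezh2, the catalytic subunit of the Polycomb repressive complex PRC2 in dividing cells, had 7.80, 12.5, and 12.9 CPM in Phf21bΔ4/Δ4 replicates 2, 3, and 6 and 16.8, 16.8, and 19.1 CPM in Phf21b+/+ replicates 5, 7, and 8. The genotypes did not overlap, with replicate 2 the lowest mouse. The means were 11.1 ± 2.83 and 17.6 ± 1.305 CPM (SD, n = 3), a 1.62-fold lower level in Phf21bΔ4/Δ4 mice (log2 difference −0.70 ± 0.21, limma FDR 0.15), which missed the threshold. Without replicate 6 the FDR was 0.059 in limma with a log2 difference of −0.83, past both thresholds. In that fit 2830 of all 14477 genes were called, and without any other mouse the Ezh2 FDR was 0.19 to 0.36. The habenula and thalamus sums were low in all 3 Phf21bΔ4/Δ4 mice, as the plot of members beside regional marker sums shows, and their part in the Ezh2 values was not tested. Ezh1, the PRC2 subunit of postmitotic cells, had a log2 difference of −0.00 ± 0.08, with a 95% interval from −0.20 to 0.20.

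Of the H4K20 methyltransferases, Kmt5a, the monomethyltransferase of the cell cycle, had 27.4, 28.0, and 32.5 CPM in Phf21bΔ4/Δ4 mice and 35.4, 36.2, and 37.7 CPM in Phf21b+/+ mice (log2 difference −0.32 ± 0.09, limma FDR 0.15). Kmt5c, which trimethylates H4K20 in heterochromatin, had 2.91, 4.10, and 4.52 CPM against 4.94, 5.70, and 5.30 CPM (log2 difference −0.49 ± 0.20, limma FDR 0.21). Neither gene overlapped between the genotypes, and replicate 2 was the lowest mouse in both. For Kmt5c, Phf21bΔ4/Δ4 replicate 6 and Phf21b+/+ replicate 5 had 104 reads each, so only the scaling to library size parted them. Kmt5b, the relative of Kmt5c, had 5.6 RPKM against the 1.14 RPKM of Kmt5c and a log2 difference of 0.02 ± 0.08.

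In the SMYD proteins, which carry a SET domain split by a MYND zinc finger, 2 members had unadjusted p-values under 0.05 in limma. Smyd5, a methyltransferase reported on histone and ribosomal substrates, had 39.3, 37.4, and 32.6 CPM in Phf21bΔ4/Δ4 mice and 29.4, 26.3, and 29.6 CPM in Phf21b+/+ mice (log2 difference 0.36 ± 0.10, limma FDR 0.15). The genotypes did not overlap. Smyd1 had 4.81 and 3.52 CPM in Phf21bΔ4/Δ4 replicates 2 and 3, from 114 and 74 reads, but 1.17 CPM in replicate 6, which lay within the 0.989 to 1.33 CPM of the Phf21b+/+ mice.

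The Smyd1 difference of 1.28 ± 0.53 on the log2 scale (95% interval 0.03 to 2.53, limma FDR 0.21) thus came from 2 of 3 mice. These were the mice with dentate granule cell sums of 115 to 123.1 CPM, and replicate 6 had a sum of 489 CPM. The part of this in the Smyd1 values was not tested. The other SMYD proteins differed by −0.08 to −0.02. Of the SET-domain enzymes that act mainly on other proteins, Setd6 had 7.63, 6.95, and 8.66 CPM against 10.1, 9.96, and 9.57 CPM, without overlap (log2 difference −0.35 ± 0.12, limma FDR 0.17). Setd3 and Setd4 differed by −0.13 ± 0.08 and 0.08 ± 0.19.

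**Figure D4:**
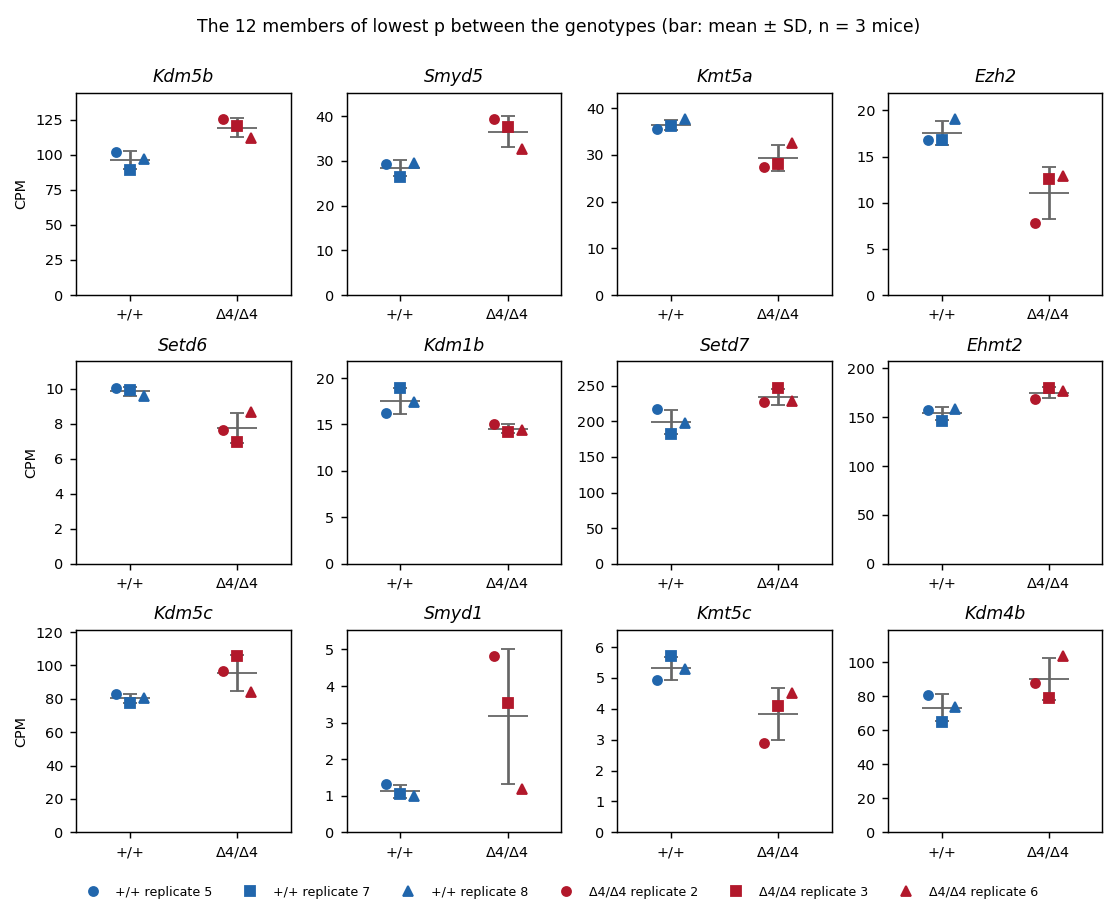
CPM in each mouse for the 12 members of lowest p between the genotypes (blue, Phf21b+/+; red, Phf21bΔ4/Δ4; bars, mean ± SD of 3 mice; vertical axes start at 0). The genotypes do not overlap in 10 of the 12, with Smyd1 and Kdm4b as the exceptions, and Ezh2 shows the largest fold difference of those 10. The 12 were picked by p from these same mice, which favours separation. Over all 59 members 16 did not overlap (27.1%, against 31.0% of all genes).

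**Figure D5:**
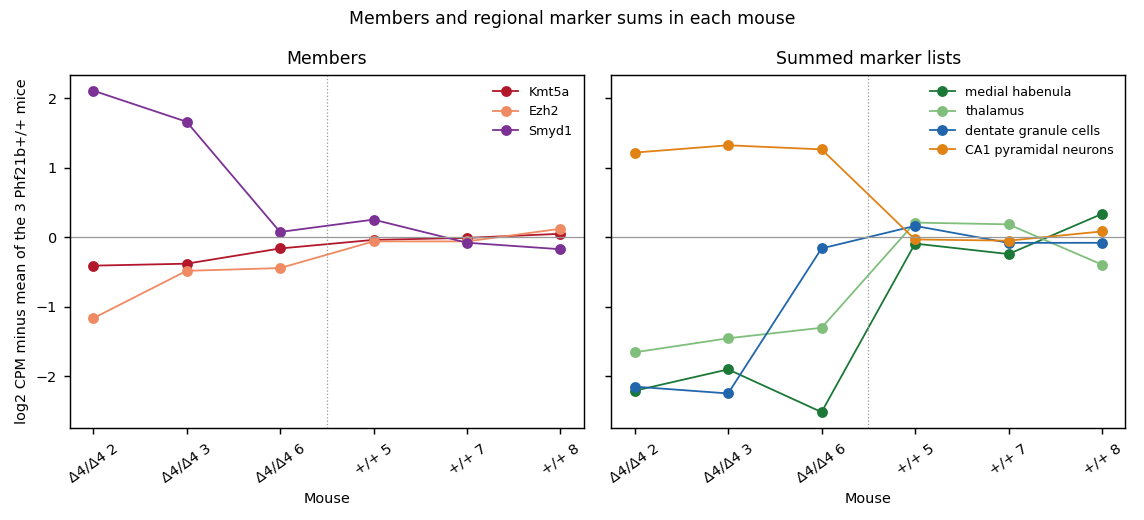
Kmt5a, Ezh2, and Smyd1 (left) and the summed CPM of 4 regional marker lists (right) in each mouse, as log2 CPM minus the mean of the 3 Phf21b+/+ mice. Habenula and thalamus sums are low and the CA1 sum is high in every Phf21bΔ4/Δ4 mouse, and the dentate sum and Smyd1 in Phf21bΔ4/Δ4 replicate 6 lie near the Phf21b+/+ mice.

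The PRDM zinc finger proteins, which carry a PR domain related to SET, held 0 called members. Prdm16, described because of 1 mouse after its values were seen, codes for a factor of radial glia, brown fat, and ependymal development. It had 15.4, 14.2, and 14.8 CPM in Phf21bΔ4/Δ4 mice and 12.2, 33.6, and 20.5 CPM in Phf21b+/+ mice (log2 difference −0.46 ± 0.34, limma FDR 0.41). The antisense Prdm16os had 22.5, 17.8, and 21.8 CPM against 19.7, 36.9, and 25.0 CPM. Both were highest in Phf21b+/+ replicate 7, the mouse with the choroid plexus sum of 15617 CPM and an ependymal sum of 148 CPM against 13.4 to 106 CPM elsewhere, and the part of these in the values was not tested. Without replicate 7 the Prdm16 difference was −0.10. Prdm2, Prdm4, Prdm8, Prdm10, Prdm11, and Prdm15 differed by −0.02 to 0.26.

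Of the 16 demethylases, 9 had higher and 7 lower means in Phf21bΔ4/Δ4 mice, with a median log2 difference of 0.04 and 0 called. The genotypes did not overlap in 4 of the 4 H3K4 demethylases among the members, which leave out Kdm1a, 3 higher and 1 lower, beside 31.0% of all genes. Kdm5b, a Jumonji demethylase of di- and trimethylated H3K4, had 125, 120, and 112 CPM in Phf21bΔ4/Δ4 mice and 102, 89.1, and 97.2 CPM in Phf21b+/+ mice (119 ± 6.79 against 96.1 ± 6.60, SD, n = 3; log2 difference 0.31 ± 0.08, limma FDR 0.14). The genotypes did not overlap, and the fold change of 1.24 was below the threshold of 1.3. Correction for exon length, chosen after seeing the data, gave a Kdm5b log2 difference of 0.16 (limma FDR 0.24), and correction for GC content gave 0.31 (limma FDR 0.13). Kdm5c, the X-linked paralog whose loss causes intellectual disability, had 96.7, 105, and 84.0 CPM against 82.9, 77.2, and 80.6 CPM (log2 difference 0.24 ± 0.10, limma FDR 0.20).

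In Kdm5c, replicate 6 lay just above the highest Phf21b+/+ mouse and replicates 2 and 3 well above. Kdm5a did not overlap either, but differed by 0.05 ± 0.06 only. Kdm1b, the amine oxidase LSD2 and closest relative of LSD1, had 15.1, 14.1, and 14.4 CPM against 16.2, 18.9, and 17.4 CPM (log2 difference −0.27 ± 0.10, limma FDR 0.18), so it went the other way from the 3 Kdm5 genes without overlap. LSD1 itself (Kdm1a), an H3K4 demethylase that is no member, overlapped between the genotypes. It differed by 0.05 ± 0.07 with 98.0, 91.1, and 98.3 CPM against 96.5, 88.4, and 91.8 CPM.

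Of the Kdm4 enzymes, which act on H3K9 and H3K36, Kdm4a did not overlap (log2 difference 0.17 ± 0.08, limma FDR 0.23), Kdm4d differed by 0.06 ± 0.27, and Kdm4c by −0.21 ± 0.13. Kdm4b had 87.7, 78.9, and 103 CPM against 80.8, 65.1, and 73.8 CPM, and replicate 3 lay below Phf21b+/+ replicate 5 (log2 difference 0.29 ± 0.13, limma FDR 0.22). The H3K9 demethylases Kdm3a and Kdm3b differed by −0.03 ± 0.08 and 0.10 ± 0.08, the H3K36 demethylases Kdm2a, Kdm2b, and Kdm8 by 0.06 ± 0.07, 0.03 ± 0.11, and −0.05 ± 0.18, and Kdm7a by −0.03 ± 0.10. The 95% intervals of Kdm2a, Kdm2b, Kdm3a, Kdm3b, Kdm4a, and Kdm7a held no 1.3-fold change in either direction. Of the H3K27 demethylases, Kdm6b differed by −0.02 ± 0.31, with a 95% interval wide enough (−0.76 to 0.72) to hold a change of that size both ways.

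Kdm6a, the X-linked H3K27 demethylase UTX, had 52.2, 50.2, and 57.8 CPM in Phf21bΔ4/Δ4 mice and 64.7, 59.4, and 56.1 CPM in Phf21b+/+ mice (log2 difference −0.17 ± 0.09, limma FDR 0.28). Replicate 6 lay above Phf21b+/+ replicate 8, so the genotypes overlapped. Kdm5c and Kdm6a escape X inactivation and are therefore read beside the sex of the animals, which the labels do not give. Xist was present in all 6 mice at 86.9 to 216 CPM, and Kdm5d, Uty, Ddx3y, and Eif2s3y, which lie on the Y chromosome, were not among the listed genes. A listed gene had at least 1 CPM in at least 2 samples. By these transcripts all 6 mice, of both genotypes, read as female.

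Genes that act with these enzymes were described from lists of complex subunits and readers, of which 51 were among the listed genes. Of these, 1 was called, lower (1.22% of all genes were called), 5 had an unadjusted p under 0.05 in limma with a higher mean and 4 with a lower mean, and the median log2 difference was 0.01. The gene that fell was Cdyl, a chromodomain corepressor that binds H3K9 and H3K27 methylation and brings G9a and PRC2 to chromatin. It had 25.5, 25.6, and 34.6 CPM in Phf21bΔ4/Δ4 mice and 58.6, 54.9, and 53.4 CPM in Phf21b+/+ mice (28.6 ± 5.23 against 55.6 ± 2.68, SD, n = 3; log2 difference −0.97 ± 0.13, limma FDR 0.062). The genotypes did not overlap and replicate 6 was the highest of the Phf21bΔ4/Δ4 mice. Without replicate 6 the limma FDR was 0.0044, and without any other mouse it was 0.11 to 0.24.

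By list, 0 of 12 COMPASS and MLL complex subunits were called (7 with higher and 5 with lower means, median log2 difference 0.03), beside the median of 0.31 of the H3K4 writers. The lowest p among these subunits belonged to Men1, menin, with 56.0, 57.3, and 49.6 CPM against 47.2, 39.2, and 42.9 CPM (log2 difference 0.33 ± 0.10, limma FDR 0.15). Of 9 PRC2 subunits 0 were called, 6 had lower means, and 3 of those did not overlap (Suz12, Eed, and Rbbp4; 16.0% of all genes were lower without overlap), with log2 differences of −0.16, −0.17, and −0.20. Among the H3K36 readers and partners, Supt6, a histone chaperone of elongating RNA polymerase II, had 264, 243, and 237 CPM against 202, 174, and 189 CPM (log2 difference 0.40 ± 0.09, limma FDR 0.13). Mrgbp, a subunit of the NuA4 acetyltransferase, had 8.18, 9.05, and 9.74 CPM against 12.01, 11.9, and 11.7 CPM (log2 difference −0.41 ± 0.11, limma FDR 0.14). Neither gene overlapped between the genotypes, and 0 of the 10 genes in this list were called. The H3K9 partners and HP1 proteins, with Cdyl as 1 of 10, had 5 higher and 5 lower means and a median log2 difference of −0.01. Of 8 demethylases outside the symbol rule, Kdm1a included, 0 were called and the median was 0.01. Mecom and Setmar, the methyltransferases outside it, differed by −0.71 ± 0.47 and 0.09 ± 0.18 and were not called.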

How the data were processed

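RNA was measured in 6 hippocampal libraries, made from total RNA after removal of ribosomal RNA and sequenced single-end. Per the submitters' processing notes and the study's methods, the authors trimmed reads with Trimmomatic 0.39, mapped them to GRCm38 with STAR 2.7.3a, counted them per gene with featureCounts of Subread 1.6.4, kept genes with at least 1 CPM in at least 2 samples, and used edgeR for scaling to effective library sizes. What the authors deposited is a matrix of 14477 genes in log2 CPM. The prior count and the use of strand are not given in the sources used here. Within a tolerance of 0.1 reads, 100.0% of values were whole numbers of reads after a mean prior of 0.1 reads was taken off, and CPM and reads were worked out from them. All 6 value columns matched a sample (0 without one).

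Because the values are not counts, the genotypes were compared with limma 3.58.1 (R 4.3.3; prior variance following the mean, two-sided, Benjamini-Hochberg over all 14477 genes). Called genes had a fold change above 1.3 with an FDR under 0.1, the thresholds in the study's methods, and "fell" and "rose" are used of called genes only. Differences are Phf21bΔ4/Δ4 minus Phf21b+/+ on the log2 scale, ± SE. Lengths, GC content, and positions come from GENCODE M21 of GRCm38, which matched 14277 genes (98.6%) and 58 members (98.3%), whereas the study mapped to a later release of the same build. Figures were drawn with matplotlib 3.10.9, and tables were made with SciPy 1.17.1, NumPy 2.4.6, and pandas 2.3.3 under Python 3.11.15.

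A gene that met the symbol rule but is withheld is not reported here, and counts of members leave it out. Members, role lists, partner lists, marker lists, and the motif were chosen with earlier results of these data known. Values in every mouse are given for called members, the 12 of lowest p, the 3 highest and 3 lowest by level where a result turns on them, the sex-linked members, the writers of H3K9 and H3K36 methylation, called partner genes and the 3 of lowest p, and Phf21b and Kdm1a. For Kmt2d, Prdm16, and Prdm16os they were added after their values were seen. Alternatives were other variance models, sample weights, a filter on low values, other pseudocounts, quantile normalization, centring, voom on the recovered reads, other thresholds, and leaving out each mouse. Corrections for exon length and for GC content were added after the data were seen.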

Additional observations from a re-analysis of the deposited data

How the results depend on the processing

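Over the 29 named genes and up to 17 alternatives each, 475 of 492 values kept their sign, 17 turned (all in genes that were not called), 6 lost a call, and 12 gained one. Weighting the mice by limma's arrayWeights raised the number of called genes from 176 to 3549, of called members from 0 to 5 (Smyd5, Kmt5a, Ezh2, Smyd1, and Kmt5c), of members with an unadjusted p under 0.05 from 11 to 17, and of called partner genes from 1 to 5. The weights were 2.04, 0.554, and 0.343 for Phf21bΔ4/Δ4 replicates 2, 3, and 6. For Phf21b+/+ replicates 5, 7, and 8 they were 1.01, 0.553, and 4.63, so that fit leaned most on 1 mouse of each genotype. A constant prior variance gave 75 genes and 0 partner genes, and a mean log2 CPM of at least 1 gave 101 genes. Of the alternatives without a mouse left out, arrayWeights alone called any member. The split of called genes was 80 higher and 96 lower with the deposited values, 104 and 94 after centring, 13 and 62 with a constant prior variance, and 55 and 46 with the filter. Quantile normalization left 10 in place of 16 members without overlap, with no share of all genes worked out beside it. Correction for exon length, chosen after seeing the data, left 6 in place of 11 members with an unadjusted p under 0.05, and the members' median log2 difference was −0.014 in place of 0.061. Correction for GC content, chosen likewise, left 10 such members and a median of 0.069. Centring moved the median of all genes from −0.02 to 0.03 and split the 11 members with an unadjusted p under 0.05 into 9 higher and 2 lower, against 6 and 5. The cause of these moves was not tested.

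Leaving out each mouse gave 9 to 2830 called genes, 0 to 6 called members, and 0 to 6 called partner genes. It also gave 4 to 16 members with an unadjusted p under 0.05 and 19 to 29 members without overlap. The members' median ran from 0.04 to 0.10. A member without overlap among all 6 mice stays so when any mouse is left out, so that count cannot fall below 16. For these counts of members the share of all genes was not worked out. The highest of the counts of calls came without Phf21bΔ4/Δ4 replicate 6, where Setd5, Smyd5, Kmt5a, Ezh2, Setd6, and Smyd1 were called, and 0 members were called without any one of the other 5 mice. No paired analysis was possible because the labels give neither litters nor any other pairing of the mice. Differences of a few percent could not be resolved with 3 mice per genotype.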
